A study of Mus musculus with 4 samples.

Results

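Cyclin-dependent kinase (CDK) inhibitors and D-type cyclins were followed in Py-4-1, a cell line from a mouse hemangioendothelioma, a tumour of endothelial cells. All 9 genes named for this set, Cdkn1a, Cdkn1b, Cdkn1c, Cdkn2a, Cdkn2c, Cdkn2d, Ccnd1, Ccnd2 and Ccnd3, were taken with every probe set that the platform annotation gives to 1 of these symbols alone. That gave 19 probe sets, 8 for the 6 inhibitors and 11 for the 3 cyclins, out of 22626 on the array without Affymetrix controls. Total RNA of 2 control-transfected clones (pcDNA) and of 2 clones described as stably expressing Prox1 (pcDNA/Prox1) was hybridised to 4 arrays, 1 array per clone. Both groups are transfected clones of the same line, so that each clone can carry differences of its own, and the spread within a group holds differences between clones, cultures and arrays together. In such bulk RNA, fewer cells in a given state and less RNA per cell cannot be told apart. Prox1 is a homeobox transcription factor of lymphatic endothelium, and the study's title concerns its part in invasion of kaposiform hemangioendothelioma.

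D-type cyclins bind and activate Cdk4 and Cdk6, which phosphorylate the retinoblastoma protein and so release E2F factors that drive entry into S phase. The INK4 inhibitors bind Cdk4 and Cdk6 themselves, and the Cip/Kip inhibitors bind complexes of cyclins with CDKs and mainly hold back cyclin E-Cdk2. Prox1 is known to act on Cdkn1b and Cdkn1c in other tissues, which is why both genes were looked at here.

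Prox1 itself was read by 1 probe set (1421336_at), at intensities of 52.1 and 60.5 in the control clones against 62.4 and 44.3 in the pcDNA/Prox1 clones, here and below in the order clone 1, clone 2. The groups overlapped, and the probe set lay below the intensity filter. The labels were therefore not borne out by this probe set, and the second group is called Prox1-labelled. The sources used here do not say whether it lies within the cDNA that was transfected. As a guide to background, 27 Affymetrix probe sets for Bacillus genes were used, and the highest of them read from 45.3 to 101 over the 4 arrays. All 6 endothelial markers were above it on every array, with summed intensities of 16697 to 21151 in control clones and 21809 to 22619.7 in Prox1-labelled clones. The endothelial sums of the groups did not overlap. However, the 2 control sums were further from each other than the higher was from either Prox1-labelled sum. Pecam1, Tek and Eng were higher in both Prox1-labelled clones, while the groups overlapped for Cdh5, Kdr and Tie1. The part of this list's signal in the results below was not tested. Of 6 fibroblast and mural markers 3 (Col3a1, Pdgfra and Pdgfrb) were under this background on every array, as were 3 of 6 leukocyte markers (Ptprc, Itgam and Cd3e) and 3 of 4 epithelial markers (Epcam, Krt18 and Cdh1). Above it on every array were Acta2 (226 to 408) and Col1a2 (144 to 191) of the first list, Cd68 (708 to 970) and Csf1r (240 to 443) of the leukocyte list, and Krt8 (125 to 221) of the epithelial list. Cd68 was lower in both Prox1-labelled clones (708 and 806 against 847 and 969.6), with a log2 change of -0.25 (adjusted p = 0.607), and the groups overlapped for the other 4. Their summed intensities overlapped between the groups for fibroblast (492 to 805 against 554.5 to 570.3) and leukocyte markers (1243 to 1581 against 1263 to 1309), while the epithelial sum was 188 to 198 in control and 199 to 335 in Prox1-labelled clones. Of the 11656 probe sets past the intensity filter, control clones 1 and 2 differed at least 2-fold from each other at 355, and the Prox1-labelled clones at 60. Both counts were made after a pseudocount of 47 was added to each intensity.

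In these values the set leaned to higher signals in the Prox1-labelled clones without any probe set passing the test. The log2 change was positive for 16 of 19 probe sets, where 50.4% of all probe sets were positive. The median change was 0.25 over the 19, 0.19 over the inhibitors and 0.33 over the D-type cyclins, against 0.0025 over all probe sets. The inhibitor median moved with the pseudocount, to 0.41 with none and 0.068 with the larger one, and was 0.30 without control clone 2. The median of the cyclins was 0.22 without control clone 2. Both Prox1-labelled clones read above both control clones at 11 of the 19 (57.9%), where 20.9% of all probe sets did so, and below both at 0, where 20.2% did. These 11 came from 5 genes, Cdkn1b, Cdkn2c, Cdkn2d, Ccnd1 and Ccnd2, and 8 of them belonged to Ccnd1 and Ccnd2. Probe sets of 1 gene report the same RNA, so they do not count as separate evidence.

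By limma 0 of the 19 probe sets had an adjusted p under 0.05, where 0.103% of the probe sets past the intensity filter did. That filter asked for a signal above the median of the array on at least 2 arrays, and 16 of the 19 passed it. The smallest adjusted p among the members was 0.154, for Cdkn1b. When a control clone was left out, calls became more frequent over the whole array. Without control clone 1, 2 of the 16 were called, where 1.14% of all filtered probe sets were. Without control clone 2, 4 of the 16 were, where 9.87% of all filtered probe sets were, and the calls given below for those fits are to be read against these shares. The member calls without control clone 1 were of Ccnd1 alone (log2 changes of 1.04 and 0.94). Those without control clone 2 were lower for Cdkn1a (-1.08 and -0.63) and higher for Cdkn1b (0.81) and Cdkn2c (0.77). With all 4 clones and no filter, 5 of the 19 had an unadjusted limma p under 0.05, where 10.2% of all probe sets did. All 5 were higher in the Prox1-labelled clones, as 5.89% of all probe sets were at that p. With 2 clones in each group the smallest p that exact permutation allows is 0.333, so single genes were tested only in the fit across all probe sets.

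**Figure D1:**
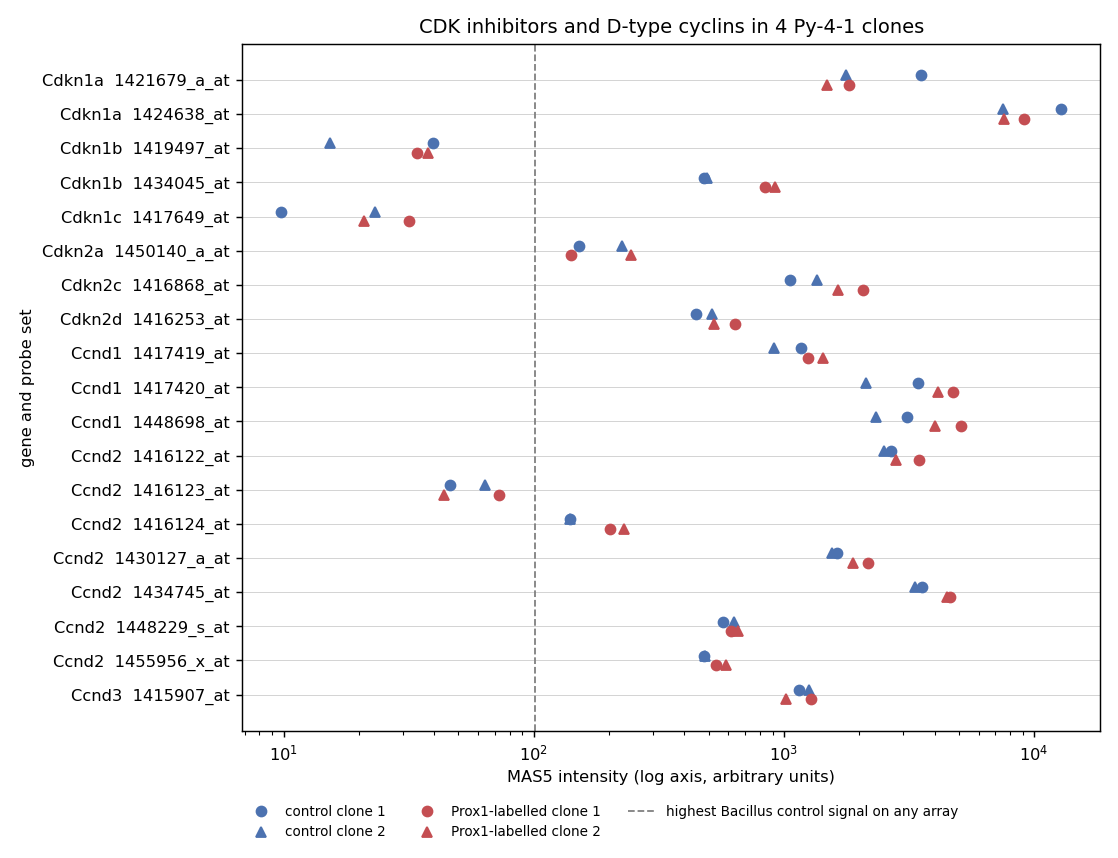
MAS5 intensity (log axis) of the 19 probe sets, 1 point per clone, blue for control and red for Prox1-labelled clones, circles for clone 1 and triangles for clone 2. The red points lie to the right of both blue points for 1434045_at of Cdkn1b, for Cdkn2c and for all 3 probe sets of Ccnd1, while control clone 1 alone stands high for Cdkn1a, and the dashed line at 101 is the highest Bacillus control signal.

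Promoter windows from RefSeq (build GRCm38.p6, 250 bases before to 50 after an annotated start) were at hand for 6 of the 9 genes. Those of the 3 inhibitor genes with a probe set higher in both Prox1-labelled clones are shown, with matches to 5 motifs, searched on both strands, in capitals. These were the Sp1 motif GGGCGG, the box CCAAT, the E-box CACGTG, the E2F motif TTTNGCGC and the FoxO motif TGTTTAC. Cdkn2c has a second start, and its upstream one is shown.
Cdkn1b promoter, chr6:134920151-134920450, plus strand: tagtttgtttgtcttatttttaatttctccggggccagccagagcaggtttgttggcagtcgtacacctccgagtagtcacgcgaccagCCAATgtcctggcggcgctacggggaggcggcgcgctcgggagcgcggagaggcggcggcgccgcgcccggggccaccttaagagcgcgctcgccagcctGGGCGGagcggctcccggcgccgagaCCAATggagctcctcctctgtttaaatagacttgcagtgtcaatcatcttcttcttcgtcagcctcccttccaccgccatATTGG
Cdkn2c promoter, chr4:109666707-109667006, minus strand: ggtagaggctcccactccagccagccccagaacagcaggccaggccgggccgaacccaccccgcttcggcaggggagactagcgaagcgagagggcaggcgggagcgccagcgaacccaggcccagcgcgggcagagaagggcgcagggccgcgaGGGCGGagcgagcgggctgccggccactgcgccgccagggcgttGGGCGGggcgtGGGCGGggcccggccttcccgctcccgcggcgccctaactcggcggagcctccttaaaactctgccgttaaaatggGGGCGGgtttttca
Cdkn2d promoter, chr9:21291160-21291459, minus strand: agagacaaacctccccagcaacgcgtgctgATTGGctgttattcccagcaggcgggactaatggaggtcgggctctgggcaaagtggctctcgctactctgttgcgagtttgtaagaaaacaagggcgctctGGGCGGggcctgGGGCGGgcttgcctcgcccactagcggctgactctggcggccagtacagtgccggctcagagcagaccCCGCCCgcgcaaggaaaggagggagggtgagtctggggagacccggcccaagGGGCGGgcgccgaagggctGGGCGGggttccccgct
The Cdkn1b window held 3 CCAAT letters and 1 GGGCGG, the Cdkn2c window 4 GGGCGG, and the Cdkn2d window 5 GGGCGG and 1 CCAAT. Over all 32851 windows of this length, 35.7% held GGGCGG and 37.4% held CCAAT. The E-box, E2F and FoxO letters were in none of the 3 windows shown, and were in 7.15%, 1.38% and 3.65% of all windows, respectively. For Cdkn2c this depends on the start, since its other window held 1 E-box. Of the other members' windows, 1 of Cdkn2a held 1 E2F match and 1 of Ccnd3 held 1 FoxO match. The Sp1 motif was not particular to the 3 genes shown. Cdkn1a, Cdkn2a and Ccnd3, with no probe set higher in both Prox1-labelled clones, also held it. There were 2 matches in 1 window of Cdkn1a, 3 and 1 in those of Cdkn2a, and 2 in each of Ccnd3. The upstream window of Cdkn1a and the other window of Cdkn2c held 0. These matches describe the letters alone, and the arrays do not measure binding.

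Cdkn1b encodes p27Kip1, the Cip/Kip inhibitor that restrains cyclin E-Cdk2 in resting cells. Its brighter probe set (1434045_at) read 481 and 492 in the control clones against 837 and 919 in the Prox1-labelled ones. The 2 control values lay within a narrow range, and both Prox1-labelled values stood well above it. Group means were 486 ± 7.44 and 878 ± 58.3 (SD, n = 2), a 1.73-fold difference with a log2 change of 0.79 ± 0.19 (SE, limma adjusted p = 0.154). The interval of this single probe set, unadjusted for the number tested, ran from 0.37 to 1.22. The change stayed between 0.73 and 0.86 whichever clone was left out, and without control clone 2 it passed the threshold (adjusted p = 0.0288, in a range up to 0.557 over 15 alternatives).

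The other Cdkn1b probe set (1419497_at) read 39.6 and 15.3 in the control clones against 34.2 and 37.8 in the Prox1-labelled ones. All 4 values were under the highest Bacillus control of their array, and the groups overlapped. Its log2 change was 0.18 (limma adjusted p = 0.825 without the filter), 0.55 with no pseudocount and 0.063 with the larger one. It turned to -0.061 without control clone 2. The 2 probe sets of Cdkn1b thus differ in that only the brighter one carried a signal above background.

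Cdkn1c encodes p57Kip2, an inhibitor of the same family that is imprinted and linked to leaving the cell cycle during development. Its single probe set (1417649_at) read 9.77 and 23.1 in the control clones against 31.7 and 20.9 in the Prox1-labelled ones. All 4 readings were under the highest Bacillus control of their array, so that no level above background was measured in either group. The log2 change of 0.21 (interval -0.20 to 0.63, adjusted p = 0.727 without the filter) was 0.78 with no pseudocount and 0.074 with the larger one, and 0.061 without control clone 1.

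Cdkn1a encodes p21, the Cip/Kip inhibitor that p53 switches on. The probe set 1421679_a_at read 3520.2 and 1771 in the control clones against 1819 and 1485 in the Prox1-labelled ones. Control clone 1 alone was high, and control clone 2 lay between the Prox1-labelled clones. The brighter probe set 1424638_at showed the same order of control clones, with 12861 and 7514 against 9075 and 7552. Log2 changes were -0.59 ± 0.30 (adjusted p = 0.400) and -0.25 ± 0.25 (adjusted p = 0.707). The difference between control clones 2 and 1 was larger than either, at -0.97 and -0.77.

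The call for both Cdkn1a probe sets, and the sign for 1424638_at alone, turned on which control clone was used. Without control clone 1 the 2 changes were -0.10 and 0.14, and without control clone 2 they were -1.08 and -0.63, both past the threshold (limma adjusted p = 0.00949 and 0.0235, where 1 array stood for the control group). Cdkn1a was the 1 inhibitor gene for which every probe set gave a negative change over all 4 clones.

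Among the INK4 genes, Cdkn2c, which encodes p18INK4c, read 1062 and 1356.5 in the control clones against 2078 and 1647 in the Prox1-labelled ones (1416868_at). Both Prox1-labelled values were above both control values. Means of 1209 ± 208 and 1862 ± 304 (SD, n = 2) gave a log2 change of 0.60 ± 0.21 (adjusted p = 0.249, interval 0.13 to 1.08). Left-out clones moved it between 0.43 and 0.77, and without control clone 2 it passed the threshold (adjusted p = 0.0396, in a range up to 0.983 over 15 alternatives).

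Cdkn2d, which encodes p19INK4d, read 445 and 517 in the control clones against 639.5 and 525 in the Prox1-labelled ones (1416253_at). The groups did not overlap, but control clone 2 and Prox1-labelled clone 2 lay close together. The log2 change was 0.25 ± 0.20 (adjusted p = 0.626, interval -0.21 to 0.71) and was 0.12 without Prox1-labelled clone 1, 0.38 without Prox1-labelled clone 2 and 0.15 without control clone 1.

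Cdkn2a, which encodes p16INK4a and, from another start and reading frame, p19Arf, read 151 and 226 in the control clones against 141 and 246 in the Prox1-labelled ones (1450140_a_at). In each group clone 2 was higher, by 0.46 and 0.64 on the log2 scale, and the groups overlapped fully. The log2 change was 0.013 ± 0.28 (adjusted p = 0.990), and the interval from -0.62 to 0.65 leaves room for a moderate change either way. Its sign turned under quantile normalization and median centring. The suffix of this probe set marks alternative transcripts of 1 gene, so the products of Cdkn2a were not told apart.

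**Figure D2:**
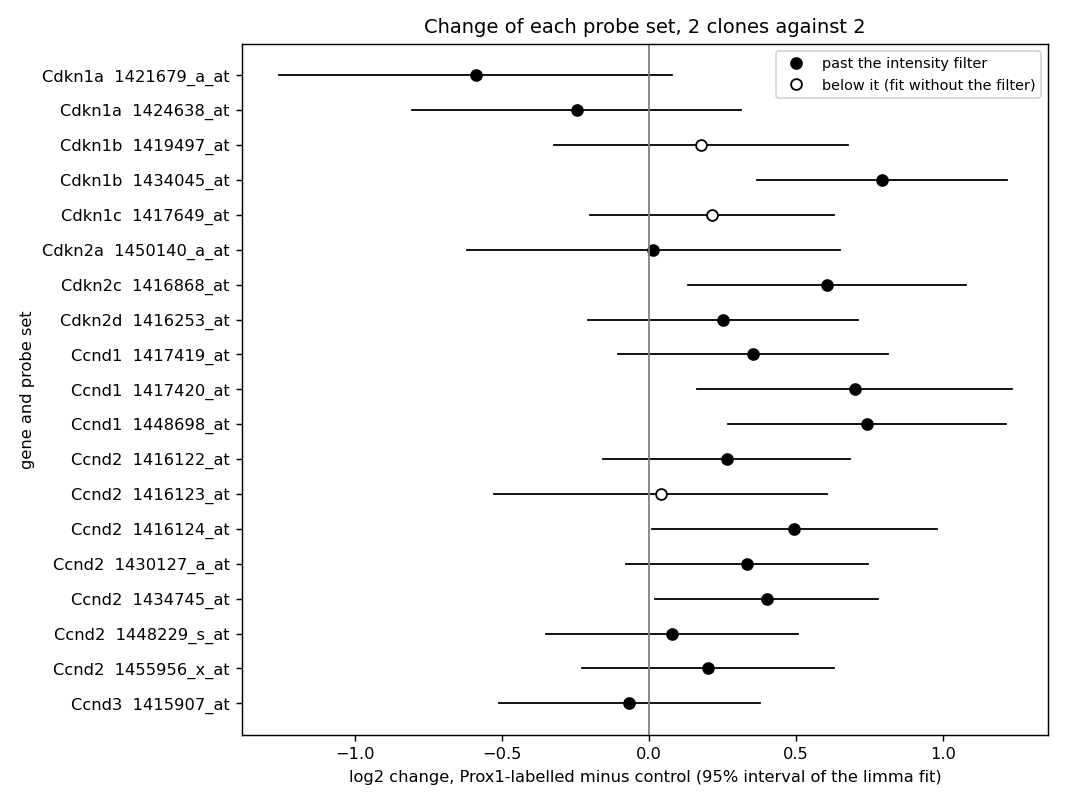
Log2 change of each of the 19 probe sets, Prox1-labelled minus control, with the 95% interval of the limma fit, which is not adjusted for the number of probe sets. Filled points passed the intensity filter and come from the filtered fit, and open points come from the fit without it. The intervals of Cdkn1b 1434045_at (0.37 to 1.22), Cdkn2c, 2 of 3 Ccnd1 and 2 of 7 Ccnd2 probe sets lie above 0. They make 6 of the 16 filtered members (37.5%) with an unadjusted limma p under 0.05, where 14.5% of all filtered probe sets had one. No adjusted p passed the threshold.

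Ccnd1 encodes cyclin D1, which growth factor signals induce in G1. All 3 of its probe sets read higher in both Prox1-labelled clones than in both control clones. The probe set 1448698_at read 3105 and 2336 in the control clones against 5114 and 4022 in the Prox1-labelled ones, a 1.67-fold difference of 0.74 ± 0.21 on the log2 scale (adjusted p = 0.188). The probe set 1417420_at read 3439 and 2133 against 4748 and 4128, with a change of 0.70 ± 0.24 (adjusted p = 0.241). The dimmer 1417419_at read 1171 and 916 against 1243 and 1435, with a change of 0.35 ± 0.20 (adjusted p = 0.465).

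Control clone 2 had the lowest Ccnd1 reading of the 4 clones on every probe set. Without control clone 1 the changes of 1417420_at and 1448698_at were 1.04 and 0.94 and passed the threshold (adjusted p = 0.0345 and 0.0472, in ranges up to 0.850 and 0.867 over 15 alternatives). Without control clone 2 they were 0.36 and 0.54, and that of 1417419_at was 0.18. The control clone that was high for Cdkn1a was thus also the higher of the 2 for Ccnd1, and the size of both genes' differences depended on the control clones.

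Ccnd2 encodes cyclin D2, and its 7 probe sets had positive log2 changes from 0.039 to 0.49. The brightest, 1434745_at, read 3561 and 3327 in the control clones against 4612 and 4495 in the Prox1-labelled ones, with means of 3444 ± 165 and 4554 ± 82.5 (SD, n = 2). Values within each group lay close together and the groups did not overlap. The log2 change was 0.40 ± 0.17 (adjusted p = 0.322) and stayed between 0.35 and 0.45 whichever clone was left out. The probe set 1416124_at read 139 and 139.7 against 202 and 229, with a change of 0.49 ± 0.21 (adjusted p = 0.337).

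The other probe sets of Ccnd2 gave smaller changes. The probe set 1430127_a_at read 1628 and 1559 against 2165 and 1884 (0.33, adjusted p = 0.438), and 1416122_at read 2669.9 and 2505 against 3458 and 2801 (0.26, adjusted p = 0.564). The last of these was 0.11 without Prox1-labelled clone 1 and 0.41 without Prox1-labelled clone 2. The suffixes of 1455956_x_at (479.7 and 482 against 534 and 585, a change of 0.20) and 1448229_s_at (569 and 631 against 615 and 656, a change of 0.077, with overlapping groups) mark probes that can match other transcripts. The dimmest, 1416123_at, read 46.0 and 63.6 against 72.9 and 43.6, and exceeded the highest Bacillus control on 1 array. In all, 5 of 7 separated the groups and 2 overlapped.

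Ccnd3, which encodes cyclin D3, gave a change near 0. It read 1149 and 1255 in the control clones against 1279 and 1022 in the Prox1-labelled ones (1415907_at). The lowest and the highest reading both came from Prox1-labelled clones. The log2 change was -0.068 ± 0.20 (adjusted p = 0.912), with an interval from -0.51 to 0.38, and was 0.088 without Prox1-labelled clone 2. The differences between Ccnd1, Ccnd2 and Ccnd3 in their changes were not tested.

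**Figure D3:**
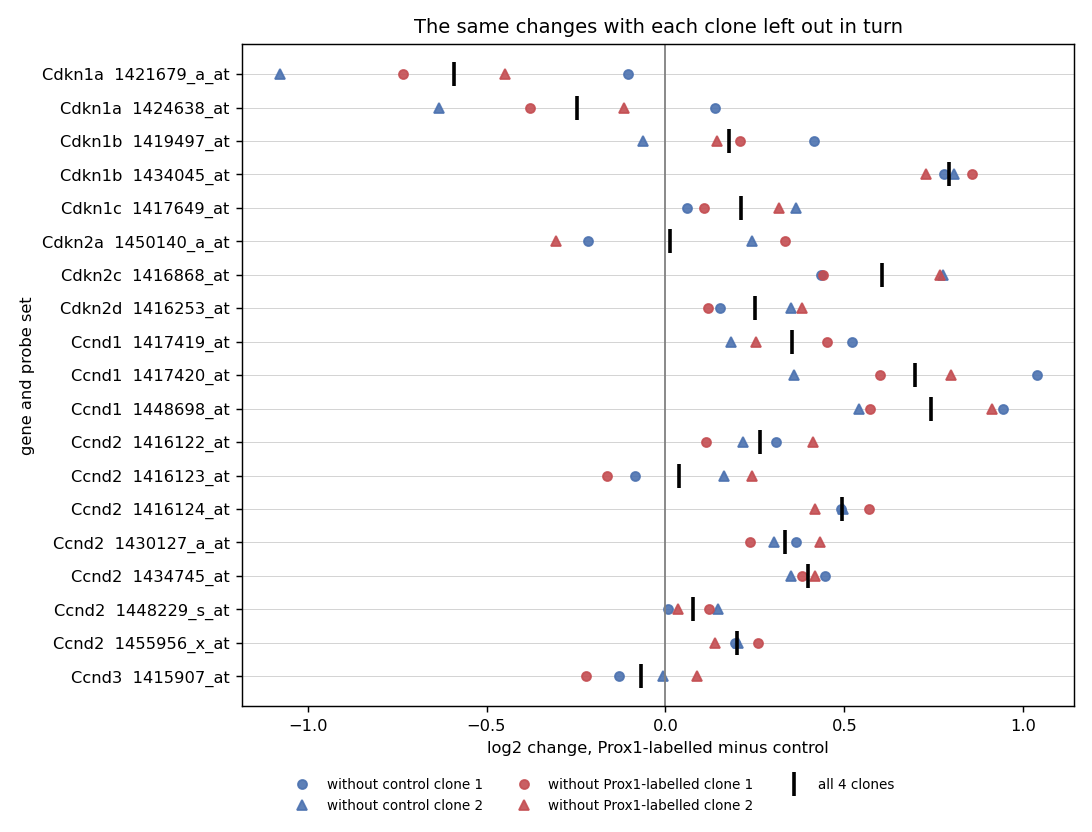
Log2 change of each probe set with all 4 clones (black bars) and with each clone left out (blue for a control, red for a Prox1-labelled clone, circle for clone 1, triangle for clone 2). Cdkn1b 1434045_at stays between 0.73 and 0.86, Cdkn1a 1421679_a_at runs from -1.08 to -0.10 on leaving out a control clone, and Ccnd1 1417420_at from 0.36 to 1.04.

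Other genes of the G1 pathway were read from 8 lists, with 1 probe set per gene. Of 73 genes listed 65 were measured and 57 passed the filter, and by limma 0 were called higher and 0 lower. Without control clone 2, 7 of the 57 (12.3%) were called, near the 9.87% of all filtered probe sets in that fit. At an unadjusted p under 0.05 there were 8 of the 57 (14.0%), where 14.5% of all filtered probe sets were. The median log2 change was -0.035, with 31 positive and 34 negative. Both Prox1-labelled clones were above both control clones for 13 of 65 and below for 17 of 65, close to the 20.9% and 20.2% over all probe sets.

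The kinases that the D-type cyclins activate gave small negative changes. Cdk4 read 4604 and 4580.2 in the control clones against 3955 and 4358 in the Prox1-labelled ones, lower in both, with a change of -0.14 (1422441_x_at, adjusted p = 0.755), which was -0.075 without Prox1-labelled clone 1. Its other probe sets gave -0.13 (1422439_a_at) and -0.079 (1422440_at), and for the last the groups overlapped (2569 and 3077 against 2440 and 2899). Cdk6 read 85.1 and 134.5 against 80.2 and 83.6 (-0.26, adjusted p = 0.774 without the filter) and exceeded the highest Bacillus control on 2 arrays, so its level was close to background. Cdkn2b, the neighbouring INK4 gene of Cdkn2a that TGF-beta induces, read 598 and 560 against 676 and 754 (0.28, adjusted p = 0.542). It was higher in both Prox1-labelled clones, as Cdkn2c, Cdkn2d and 20.9% of all probe sets were. For Cdkn2a, also of the INK4 family, the groups overlapped.

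Of 10 pocket protein and E2F genes measured, 0 were called, 6 were positive and the median was 0.079. Rb1, the retinoblastoma gene and the main target of cyclin D kinases, read 239 and 279 in the control clones against 658 and 498 in the Prox1-labelled ones. The groups were clearly apart, and the log2 change of 1.02 ± 0.22 had the smallest p of any gene in the 8 lists (adjusted p = 0.128). It ran from 0.84 to 1.21 over left-out clones and crossed the threshold when control clone 2 was dropped (adjusted p = 0.0141, with up to 0.566 over 14 alternatives). E2f8, a repressor of the E2F family, read 205 and 296 against 361 and 433 (0.59, adjusted p = 0.289), and 0.37 without control clone 1 and 0.81 without control clone 2, where it passed the threshold (adjusted p = 0.0425).

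Cyclins and kinases of later phases were split, with 3 of 6 positive and 0 called. Ccne1, the cyclin E1 gene, read 1089.8 and 651 in the control clones against 639 and 563 in the Prox1-labelled ones (-0.46, adjusted p = 0.436). Here too control clone 1 stood apart, and the change was -0.11 without it and -0.81 without control clone 2 (adjusted p = 0.0292). Ccne2 (674 and 250 against 617 and 521) was named after its values were seen. Over all 4 clones its change was 0.41 (limma adjusted p = 0.661), with overlapping groups, and it was 1.05 without control clone 1. The difference between control clones 2 and 1 was larger than either, at -1.28. The mitotic cyclin gene Ccnb2 read 298 in control clone 1 and 968, 957 and 939 in the other clones, so its change of 0.75 (adjusted p = 0.441) was -0.029 without control clone 1 and 1.53 without control clone 2 (adjusted p = 0.00192).

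Enzymes that modify CDKs had 2 of 8 positive, a median of -0.20 and 0 called. Ccnh, the cyclin H gene whose product forms the CDK-activating kinase with Cdk7, read 1104 and 1186 in the control clones against 829 and 725 in the Prox1-labelled ones (-0.53, adjusted p = 0.255). Its other probe sets gave -0.31 (1456293_s_at) and 0.057 (the dim 1418585_at). Cdk7 read 512 in control clone 1 and 269, 236 and 251 in control clone 2 and Prox1-labelled clones 1 and 2 (-0.53, adjusted p = 0.414). Without control clone 1 its change was -0.12, and without control clone 2 it was -0.94 and passed the threshold (adjusted p = 0.0218). The dimmer Cdk7 probe set 1424257_at gave 0.028 with overlapping groups (116 and 99.0 against 104 and 117), so the direction for Cdk7 is not settled.

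Genes for the turnover of CDK inhibitors and D-type cyclins had 6 of 12 positive, a median of -0.013 and 0 called. Gsk3b, whose kinase marks cyclin D1 for export and breakdown, and Fbxo4, an F-box protein implicated in that breakdown, both gave -0.28 (adjusted p = 0.585 and 0.591). The Fbxo4 value was -0.13 without Prox1-labelled clone 1, -0.44 without Prox1-labelled clone 2 and -0.18 without control clone 2, and its other probe set lay under background on every array. Upstream regulators had 8 of 12 positive, a median of 0.17 and 0 called. Foxo1, a transcription factor that can raise Cdkn1b, read 475 and 544 in the control clones against 757 and 758 in the Prox1-labelled ones (0.54, adjusted p = 0.258). Its other probe sets above background gave 0.38 (1416981_at) and 0.19 (1416982_at). Foxo3, a factor of the same family, read 421 and 283 against 560 and 884 (0.93, adjusted p = 0.188), but its probe set 1434832_at gave -0.14, so the direction for Foxo3 is not settled.

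E2F target and replication genes had 5 of 14 positive, a median of -0.040 and 0 called. Cdc6, the replication licensing gene, read 1605 and 1412 in the control clones against 994 and 836 in the Prox1-labelled ones. It was lower in both (-0.70, adjusted p = 0.185), and passed the threshold without control clone 2 (-0.79, adjusted p = 0.0353). Mki67, a marker of cycling cells, read 753 and 1109 against 1607 and 1300.4 and was higher in both (0.63, adjusted p = 0.266). It was 0.37 without control clone 1, and 0.90 without control clone 2, where it passed the threshold (adjusted p = 0.0235). Cdc6 and Mki67 thus gave values in opposite directions.

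**Figure D4:**
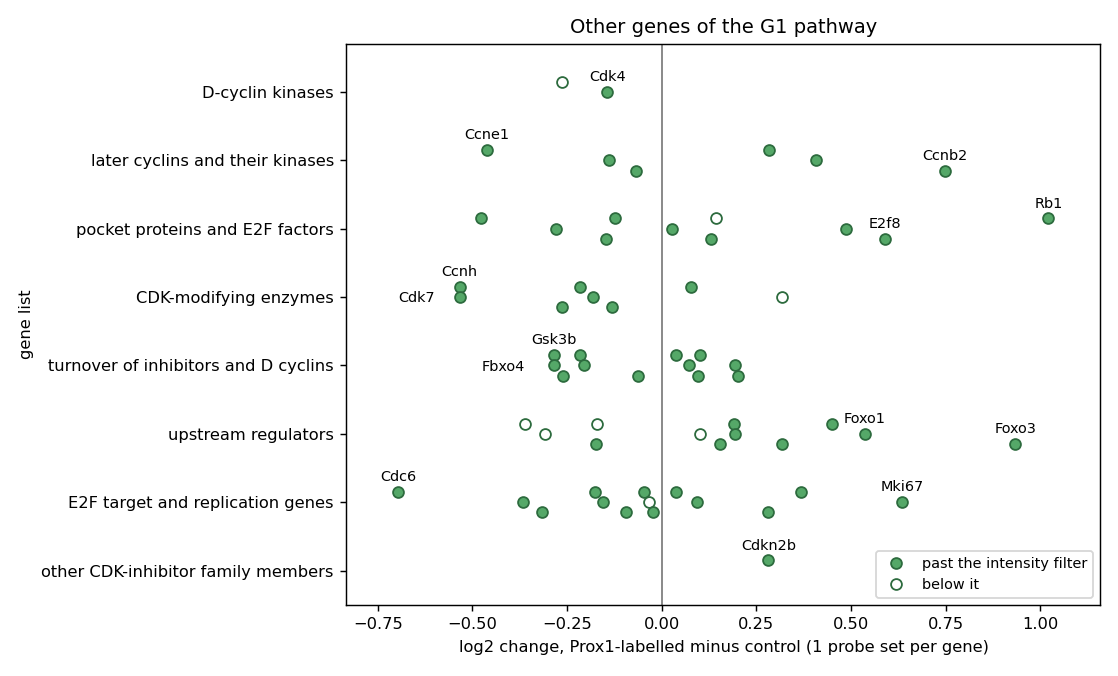
Log2 change, Prox1-labelled minus control, of each measured gene of the 8 pathway lists, 1 point per gene, filled where it passed the intensity filter. In each list the 2 genes of smallest unadjusted p among those past the filter are named, or 1 where only 1 passed. Points lie on both sides of 0 in most lists, from -0.70 (Cdc6) to 1.02 (Rb1), and no gene passed the adjusted threshold.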

How the data were processed

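Values of 4 one-colour Affymetrix arrays were used as deposited. Per the labels' processing notes, the authors made probe set intensities with MAS5, whose version is not given in the sources used here. Deposited intensities are linear, and each array had a mean of 500 after trimming 2% at either end. Genes were named from the platform annotation where it gave 1 gene. Precision is limited by the number of arrays.

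A pseudocount of 47, the 25th percentile over the arrays, was added to each intensity before log2 was taken, so changes of dim probe sets are understated. Probe sets above the array's median on at least 2 arrays (11656) were fitted with limma 3.58.1 in R 4.3.3 (intensity trend, 2-sided, Benjamini-Hochberg over all tested, threshold 0.05). This step was run on simulated data with independent noise for each probe set and array. Differences carried by a whole clone were not simulated, so that run does not cover them. Members below the filter were read from the fit without it. For pathway genes the probe set with the highest mean stood for the gene. All members were described, and of each pathway list up to 4 called genes, or else the 2 passing the filter with the smallest p (1 where only 1 passed). Alternatives were other pseudocounts, filters, normalizations and variance models, the clone number as a block, suffixed probe sets left out, and each clone left out. The members and lists were chosen with earlier results of these data known.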

Additional observations from a re-analysis of the deposited data

How the results depend on the processing

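Over 15 alternatives, 234 values of the members came with a test, of which 222 kept their direction and their side of the threshold, 6 newly passed it and 6 reversed. The 3 member probe sets below the filter (Cdkn1b 1419497_at, Cdkn1c and Ccnd2 1416123_at) gave 42 further values with no test, of which 4 reversed. A further 2 moved by at least the spread of the differences between single clones. Both came with no pseudocount, at 0.55 for Cdkn1b 1419497_at and 0.78 for Cdkn1c. The count of member probe sets called was 0 in every alternative with all 4 clones and 0 to 4 on leaving out a clone, and that of pathway genes 0 and 0 to 7. The highest of both came without control clone 2, where 9.87% of filtered probe sets were called. Fits without a clone hold no spread of that group, since the lone array is assumed to vary like the others. Over the whole array 12 probe sets were called, against 0 without the filter, 7 with the filter on the mean, 4 under quantile normalization, 7 with the robust variance model, 6 without probe sets that can match several transcripts, and 42 (without Prox1-labelled clone 1) to 1150 (without control clone 2) on leaving out a clone. The cause was not tested, though other filters and left-out probe sets also alter how many are tested. With the clone number as a replicate block 110 were called, none of them a member. The correlation of clone differences between the groups was -0.0091 over filtered probe sets, so no array-wide difference shared by clone number was seen. Whether clones of the same number shared anything beyond a label was not tested.

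Reversed values were 0.14 for Cdkn1a 1424638_at without control clone 1 (range -0.63 to 0.14 over left-out clones) and -0.061 for Cdkn1b 1419497_at without control clone 2. Cdkn2a gave -0.039 under quantile normalization, -0.032 under median centring, and -0.31 to 0.33 on leaving out a clone (-0.22 without control clone 1 and -0.31 without Prox1-labelled clone 2). Ccnd2 1416123_at gave -0.0056 under median centring, -0.085 without control clone 1 and -0.16 without Prox1-labelled clone 1, in a range up to 0.24 over left-out clones. Ccnd3 gave 0.088 without Prox1-labelled clone 2, and Ccnb2 gave -0.029 when control clone 1 was left out (1.53 when it was clone 2). Their cause was not tested. Of the 19 probe sets 14 to 16 were positive in every alternative that kept all of them. The median of the D-type cyclins was 0.41 without Prox1-labelled clone 2.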
